A study of Homo sapiens with 6 samples.

Results

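The genes described here are 10 genes of cytosolic DNA sensing, followed in U-2 OS cells after depletion of SFPQ. They are the sensors CGAS, IFI16, AIM2 and ZBP1, the signalling proteins STING1, TBK1 and IRF3, and the limiters TREX1, SAMHD1 and ENPP1. They were taken by gene name from a table of read counts, as 10 of its 60664 genes. Of the 10, 9 had at least 10 counts in total and were tested, among 29022 tested genes. TREX1 had 0 counts in every library.

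DNA does not normally lie free in the cytosol, and cells treat it there as a sign of infection or damage. The enzyme cGAS binds such DNA and makes the small messenger cGAMP. cGAMP binds STING on the endoplasmic reticulum, STING brings TBK1 to phosphorylate IRF3, and IRF3 then switches on type I interferon and a set of antiviral genes. AIM2 instead builds an inflammasome with ASC and caspase-1, and ZBP1 starts RIPK3- and MLKL-dependent cell death. Nucleases such as TREX1 remove the DNA, and ENPP1 breaks down cGAMP outside the cell. Many of these genes are themselves raised by interferon.

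U-2 OS is a polyploid human osteosarcoma cell line. Cells were transfected with control siRNA (siCTRL) or with siRNA against SFPQ (siSFPQ), at 30 nM in both groups, and 3 biological replicates per group gave 6 libraries of polyA RNA. SFPQ is a nuclear RNA- and DNA-binding protein, and the study asked what its loss does to the transcriptome. The groups come from 1 cell line and from a transient knock-down, which limits them as a model of SFPQ loss elsewhere. In RNA from whole cultures, more RNA per cell and more cells with the RNA cannot be told apart.

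The siCTRL libraries held 46142855 to 47119203 counts each, and the siSFPQ libraries 43469321 to 45543610. The floor was set at 3 counts in a library, which is 0.0637 to 0.069 CPM (the counts of a gene scaled to the library total), and covers counting error only. SFPQ itself was counted 22338, 23139 and 21753 times in siCTRL and 3140, 3863 and 3151 times in siSFPQ, and its mean fell by 85.0% (log2 fold change -2.73, standard error 0.0498, adjusted p = 6.34e-30). Every adjusted p given here comes from the quasi-likelihood test of edgeR, adjusted over all tested genes by Benjamini-Hochberg. Of 10 osteoblast lineage markers, 9 were counted more than 3 times in some library, with COL1A1 the highest. SP7 and BGLAP were among the 9 with at most 5 and 6 counts in a library, and IBSP reached 1 count. The share of counts on mitochondrial genes was 3.88% to 4.36% in siCTRL and 5.31% to 6.18% in siSFPQ. Its part in the results was not tested.

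The study measured CGAS, STING1 and IRF3 by RT-PCR as well, with primers that show which stretch of each transcript was read. The primer sequences are given as the study lists them, in lower case, with no part set in capitals.
CGAS forward: aaggatagccgccatgtttct
CGAS reverse: tggctttcagcaaaagttagg
STING1 forward: agcattacaacaacctgctacg
STING1 reverse: gttggggtcagccatactcag
IRF3 forward: ctcgtgatggtcaaggttgtg
IRF3 reverse: agtttattggttgaggtggtgg

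Matched to GENCODE release 44 transcripts on GRCh38, the CGAS primers lay in coding exons 3 and 4 of 5, at chr6:73440276-73440296 and chr6:73428790-73428810, and enclosed 110 bases of the transcript. The CGAS primer listed as forward matched the antisense strand. Both STING1 primers lay in coding exon 6 of 8 (chr5:139478457-139478478 and chr5:139478375-139478395), enclosed 104 bases and were found in 18 of 22 annotated STING1 transcripts. The forward IRF3 primer crossed the junction of exons 7 and 8, the reverse primer lay in the 3′ UTR in exon 8, and both were found in 13 of 31 annotated transcripts. The RNA-seq counts below are over whole genes and do not tell these transcripts apart.

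Of the 9 genes tested, 6 were higher and 1 was lower in siSFPQ at an adjusted p under 0.05, and 2 were not called. Over all tested genes, 22.4% were called higher and 22.1% lower, and the shares were 30.1% and 34.5% of the 15641 genes averaging 1 CPM or more. The median log2 fold change was 0.23 over the 9 genes and 0.02 over all tested genes. With a log2 fold change over 1.5 as well, the threshold of the study's methods, AIM2, ZBP1 and STING1 were higher and no gene was lower, against a background of 5.54% of all tested genes higher and 4.77% lower. In 7 genes every siSFPQ library lay above every siCTRL library after normalization, and in 1 every siSFPQ library lay below (background 26.9% and 25.4%). Of the 15641 genes averaging 1 CPM or more, 5119 lay wholly above and 5768 wholly below. AIM2, ZBP1 and STING1 belong to the innate immunity signature that the study picked from these libraries, so their rise is not independent evidence of a direction.

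**Figure D1:**
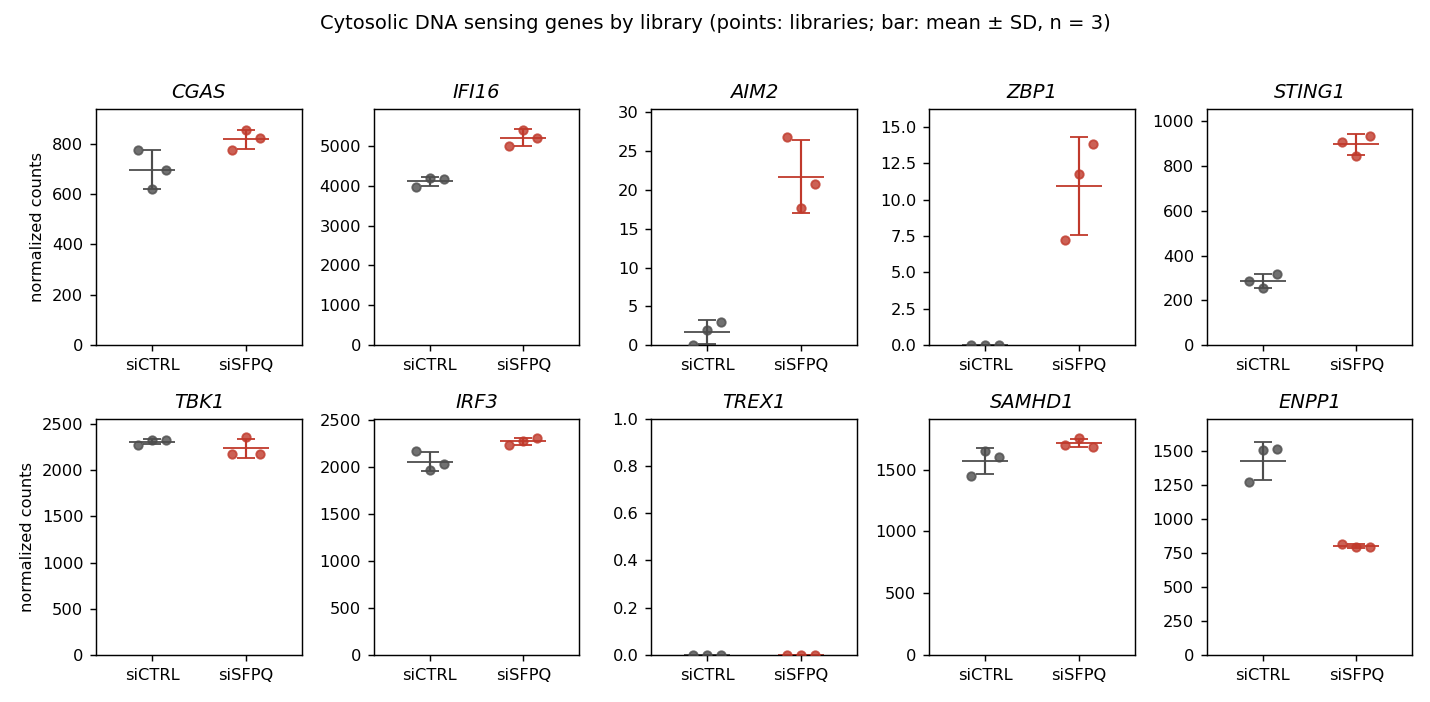
Normalized counts of each gene (vertical axis, from 0) in the 3 siCTRL and 3 siSFPQ libraries, with points for libraries and bars for mean ± SD. STING1 and ENPP1 separate the groups widely, TBK1 overlaps, TREX1 is at 0 throughout, and AIM2 and ZBP1 rest on at most 26 counts per library.

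Among the sensors, CGAS encodes the enzyme that opens the pathway (ENSG00000164430, chr6:73413515-73452297, minus strand). It was counted 773, 619 and 695 times in siCTRL and 751, 871 and 833 times in siSFPQ. The raw counts overlapped, and after normalization the lowest siSFPQ library only just exceeded the highest siCTRL library (774.6 against 774.5 normalized counts). Mean normalized counts were 697 ± 77.7 and 816 ± 39.2 (SD, n = 3 each), a rise of 17.1% (log2 fold change 0.23, standard error 0.0772, adjusted p = 0.0155 from edgeR). This call rested on 2 libraries: the adjusted p was 0.127 without siCTRL replicate 2 and 0.118 without siSFPQ replicate 2.

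IFI16, a nuclear and cytosolic DNA sensor of the PYHIN family that assists STING activation, had the highest level per exon length of the 9 genes in siCTRL (ENSG00000163565, chr1:158999968-159055155, plus strand). Its counts were 3973, 4197 and 4146 in siCTRL and 4833, 5529 and 5273 in siSFPQ. All siSFPQ libraries lay above all siCTRL libraries. Mean normalized counts of 4112 ± 115 and 5199 ± 213 (SD, n = 3 each) made IFI16 26.4% higher (log2 fold change 0.34, standard error 0.0411, adjusted p = 1.91e-08 from edgeR).

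AIM2, the PYHIN sensor that forms an inflammasome, was almost absent from control cells (ENSG00000163568, chr1:159061599-159187843, minus strand). It had 0, 2 and 3 counts in siCTRL and 26, 18 and 21 in siSFPQ. The groups did not overlap, and the siCTRL values were all at or under the floor of 3 counts. AIM2 entered the test only through its siSFPQ counts, so it could only be called higher. The ratio of the summed counts, scaled to library size, was 13.0 with a 95% counting interval of 5.28 to 41.2 (fitted log2 fold change 3.60, standard error 0.668, adjusted p = 3.16e-05 from edgeR). The fitted value depended on single siCTRL libraries, and was 3.05 without siCTRL replicate 1 and 4.28 without siCTRL replicate 3. Even in siSFPQ the level was 0.0801 CPM per kb of exon, against 4.47 CPM per kb for CGAS.

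IFI16 and AIM2 are neighbours, with 6443 bases between them, in a stretch of 356 kb on chromosome 1 that also holds the other PYHIN genes MNDA and PYHIN1. These other genes were not called: MNDA had 0, 1 and 1 counts in siCTRL and 5, 0 and 2 in siSFPQ and was not tested, and PYHIN1 had 2, 10 and 0 against 1, 2 and 8 (adjusted p = 0.936 from edgeR). Both were near the floor, where a change of the size seen for IFI16 was not detectable.

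ZBP1, a sensor of Z-form nucleic acid, was seen in siSFPQ alone (ENSG00000124256, chr20:57603846-57620576, minus strand). It had 0 counts in each siCTRL library and 7, 12 and 14 in siSFPQ. Against the floor of 3 counts per library it was at least 3.64-fold higher (adjusted p = 0.00017 from edgeR). ZBP1 entered the test only through its siSFPQ counts, so it could only be called higher. The fitted log2 fold change of such a gene depends on the prior count and is not read as a size. ZBP1 did not pass the stricter count filter of edgeR (filterByExpr).

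AIM2 and ZBP1 are best known from leukocytes, so leukocyte markers were read beside them. Of 8 leukocyte and macrophage markers, 4 exceeded 3 counts in some library (PTPRC, CD14, CSF1R and ITGAM), and CD68, LYZ, CD3E and TYROBP did not. Their summed level was 1.36 to 1.78 CPM in siCTRL and 1.82 to 2.34 CPM in siSFPQ. PTPRC, the pan-leukocyte marker, was lower in siSFPQ, with 26, 30 and 39 counts against 12, 14 and 5 (log2 fold change -1.61, adjusted p = 0.00147 from edgeR). ITGAM, a myeloid integrin, was higher, with 16, 3 and 1 counts against 39, 21 and 34 (log2 fold change 2.21, adjusted p = 0.000707 from edgeR). Epithelial keratin genes also moved with the groups, and the summed level of 5 epithelial markers was 328 to 344 CPM in siCTRL and 727 to 796 CPM in siSFPQ. The part of either list in the results was not tested.

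Promoter sequence bears on the sensors because interferon-raised genes often carry an interferon-stimulated response element (ISRE), here the letters GAAANNGAAA searched on both strands. RefSeq promoters (GRCh38.p14, 250 bases before to 50 after each start) were at hand for 6 of the 10 genes, namely IFI16, AIM2, TBK1, TREX1, SAMHD1 and ENPP1; CGAS, STING1, ZBP1 and IRF3 are named only. Of these, AIM2 held a match, which begins at position -190 relative to the start and is in capitals below on the minus strand sequence of chr1:159076717-159077016.
AIM2 promoter: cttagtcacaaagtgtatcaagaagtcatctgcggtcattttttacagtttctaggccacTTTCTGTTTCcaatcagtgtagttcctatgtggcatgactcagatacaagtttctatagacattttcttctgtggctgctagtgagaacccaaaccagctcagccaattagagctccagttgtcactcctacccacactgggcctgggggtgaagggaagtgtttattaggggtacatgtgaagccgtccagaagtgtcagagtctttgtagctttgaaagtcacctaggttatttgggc

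The capitals read TTTCTGTTTC, the reverse complement form of the ISRE letters. Among all 35116 RefSeq promoters of the same length, 3.57% held a match on either strand. The promoters of the other 5 genes, with both annotated starts of IFI16, held none. The letters TTCNNNGAA, a gamma-activated site, were in 7.66% of all promoters and in none of these 6 genes. A match describes the letters and not binding.

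Among the signalling genes, STING1 was the 1 gene called higher past both thresholds (ENSG00000184584, chr5:139475533-139482935, minus strand). STING1 encodes the receptor of cGAMP. Its counts were 288, 256 and 319 in siCTRL and 879, 866 and 950 in siSFPQ, and the groups lay far apart. Mean normalized counts were 288 ± 31.9 and 897 ± 45.6 (SD, n = 3 each), which is 3.11-fold higher (log2 fold change 1.64 with a 95% interval of 1.47 to 1.81, adjusted p = 2.5e-17 from edgeR). The interval includes the threshold of 1.5.

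TBK1, the kinase between STING and IRF3, was not called (ENSG00000183735, chr12:64452090-64502114, plus strand). Its counts were 2271, 2331 and 2318 in siCTRL and 2113, 2408 and 2205 in siSFPQ, and the groups overlapped. The log2 fold change was -0.05 with a 95% interval of -0.14 to 0.05 (adjusted p = 0.465 from edgeR), so a change of the size seen for STING1 lies outside the interval.

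IRF3, the transcription factor that TBK1 phosphorylates, changed little (ENSG00000126456, chr19:49659569-49665875, minus strand). It was counted 2163, 1970 and 2026 times in siCTRL and 2166, 2328 and 2336 times in siSFPQ. The raw groups were 3 counts apart at their nearest. Mean normalized counts were 2056 ± 101 and 2272 ± 35.5 (SD, n = 3 each), a rise of 10.5% (log2 fold change 0.14, standard error 0.048, adjusted p = 0.014 from edgeR). The call was lost without siCTRL replicate 2 (adjusted p = 0.0842) and without siSFPQ replicate 2 (adjusted p = 0.0698). Exons of BCL2L12, on the other strand, share 19.3% of the exon bases of IRF3. RNA counts say nothing of the phosphorylation on which IRF3 activity depends.

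Of the limiters, ENPP1, the membrane phosphodiesterase that hydrolyses extracellular cGAMP, fell (ENSG00000197594, chr6:131808016-131895155, plus strand). Its counts were 1266, 1509 and 1507 in siCTRL and 791, 812 and 802 in siSFPQ. Each siSFPQ library lay below each siCTRL library. Mean normalized counts were 1429 ± 139 and 800.5 ± 13.4 (SD, n = 3 each), a ratio of 0.56 (log2 fold change -0.84, standard error 0.0663, adjusted p = 1.18e-12 from edgeR). It was the only gene of the 9 to be called lower.

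SAMHD1, a dNTP hydrolase that also acts at stalled replication forks, lay at the edge of the test (ENSG00000101347, chr20:36890229-36951893, minus strand). Its counts were 1449, 1654 and 1597 in siCTRL and 1651, 1794 and 1711 in siSFPQ. Raw counts overlapped by 3 counts, and normalized counts did not overlap. The log2 fold change was 0.13 with a 95% interval of 0.02 to 0.23, and the adjusted p was 0.0523 from edgeR.

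TREX1, the main cytosolic DNA exonuclease, was listed at 0 in all 6 libraries (ENSG00000213689, chr3:48465811-48467645, plus strand). All 1448 of its exon bases also lie in exons of ATRIP, a checkpoint gene on the same strand, so a read there has no gene of its own. ATRIP was counted 602, 643 and 593 times in siCTRL and 818, 798 and 921 times in siSFPQ. Of 302 protein-coding genes that lie wholly within same-strand exons of another gene, 298 (98.7%) were at 0 in every library. Of 13 wholly within exons on the other strand, all 13 were at 0, while 959 of 10700 genes (8.96%) with no shared exon base were. The 0 of TREX1 therefore carries no information on its expression, nor does an upper limit follow from it.

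**Figure D2:**
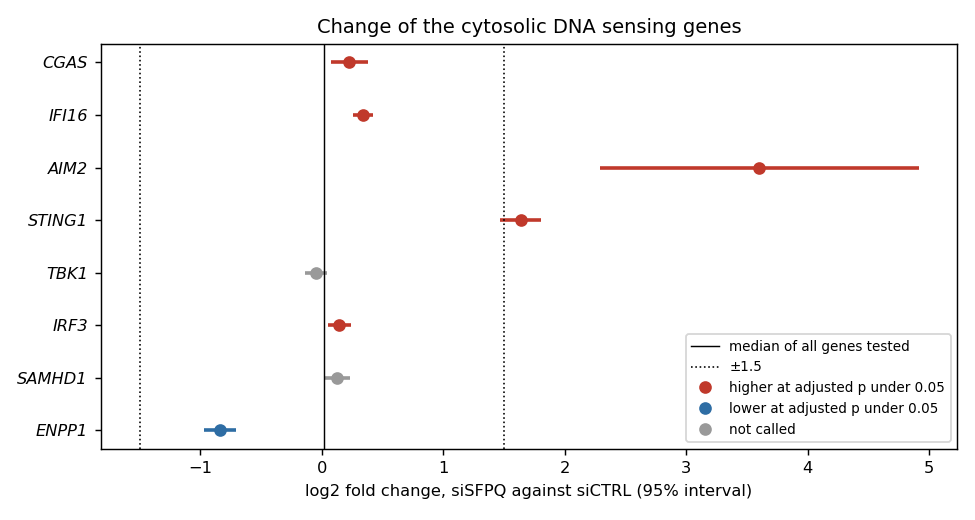
Log2 fold change of siSFPQ against siCTRL (horizontal axis) with 95% intervals for 8 genes, coloured by call, with the median of all tested genes as a solid line and ±1.5 as dotted lines. AIM2 has the widest interval, that of STING1 runs from 1.47 to 1.81, and ENPP1 alone lies below 0 beyond its interval. ZBP1, at 0 in siCTRL, and TREX1, not tested, are left out.

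Levels were compared between genes as CPM per kb of the exon bases that no other gene shares, a scale chosen after the overlaps were seen. These bases pool the exons of all annotated transcripts of a gene, 14152 bases in TBK1 and 4798 in STING1. They need not be the length of the transcript expressed, so the order between genes depends on the annotation. In siCTRL the order was IFI16 (16.98 CPM per kb), IRF3 (14.7), CGAS (3.81), TBK1 (3.57), SAMHD1 (3.51), ENPP1 (2.76), STING1 (1.31), AIM2 (0.00616) and ZBP1 (0). CGAS, TBK1 and SAMHD1 overlapped with their neighbours in this order across libraries. STING1, the receptor, was thus the lowest of the well expressed genes of the axis in control cells.

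In siSFPQ the order became IFI16 (21.5 CPM per kb), IRF3 (16.2), CGAS (4.47), STING1 (4.09), SAMHD1 (3.84), TBK1 (3.46), ENPP1 (1.54), AIM2 (0.0801) and ZBP1 (0.0442). STING1 now overlapped with both CGAS and SAMHD1. Without division by length the order differed, with mean normalized counts in siSFPQ of 2237 for TBK1, 1715 for SAMHD1, 897 for STING1 and 816 for CGAS. ENPP1 stood below every gene but AIM2 and ZBP1.

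Ratios within a library do not depend on its depth, but their size depends on the exon bases taken for each gene. Whether a ratio lies above or below 1 is therefore not read as more RNA of either gene. STING1 per CGAS was 0.31, 0.344 and 0.382 in siCTRL and 0.974, 0.828 and 0.949 in siSFPQ. STING1 per TBK1 was 0.324 to 0.406 in siCTRL and 1.06 to 1.27 in siSFPQ. For the receptor against the enzyme that degrades its ligand, STING1 per ENPP1 was 0.537, 0.401 and 0.5 in siCTRL and 2.62, 2.52 and 2.80 in siSFPQ. CGAS per ENPP1 was 1.16 to 1.73 in siCTRL and 2.69 to 3.04 in siSFPQ. In each of these 4 ratios the groups did not overlap, and they are given as a description with no test. The ratios restate the changes of the single genes above, and no background share was computed for ratios.

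**Figure D3:**
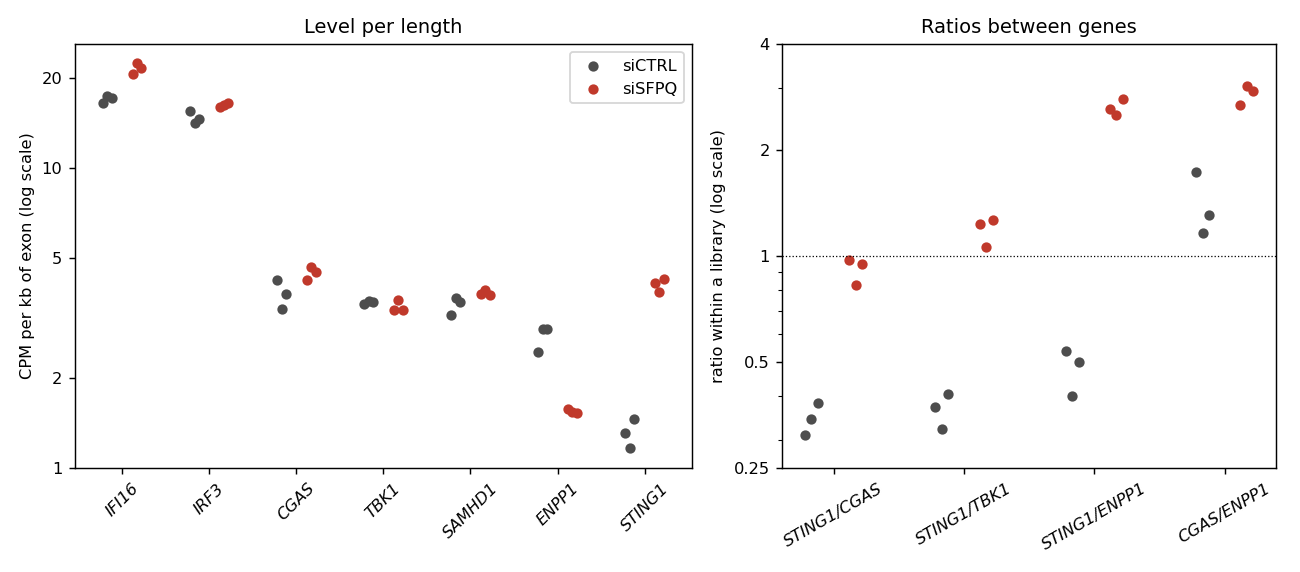
Left, level of 7 genes in CPM per kb of exon (log scale) in each library; right, ratios of these levels within a library (log scale, dotted line at 1). STING1 moves from the lowest of the 7 genes in siCTRL to the level of CGAS in siSFPQ, and all 4 ratios are higher in every siSFPQ library.

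Lists of other genes of the pathway held 128 genes, of which 117 were tested. Of these, 53 (45.3%) were higher and 33 (28.2%) lower in siSFPQ, and the median log2 fold change was 0.11. With library size alone in place of TMM, the split was 59 higher and 22 lower. Without the IRF3 target genes, 44 of 108 (40.7%) were higher and 33 (30.6%) lower, with a median of 0.03 against 0.02 over all tested genes. Beside these and the lists below stand the background shares given above, 22.4% higher and 22.1% lower over all tested genes, and 30.1% and 34.5% over genes averaging 1 CPM or more. The share of genes called lower in the pathway lists was near this background.

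Of the other DNA sensors and cofactors, 7 of 22 tested genes were higher and 7 lower, 31.8% each way (median log2 fold change -0.03). Both shares were near the background of genes with a mean of at least 1 CPM. PQBP1, an adaptor that links retroviral DNA to cGAS, rose most among those with a mean of at least 1 CPM (log2 fold change 0.47, standard error 0.0445, adjusted p = 8.93e-11 from edgeR). HMGB2, a chromatin protein that promotes nucleic acid sensing, fell most (-0.48, standard error 0.0373, adjusted p = 7.9e-13). TLR9, the endosomal DNA receptor, was at 0 in every library with 0.328% of its exon bases unshared, and is named after its values were seen.

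Among regulators of cGAS and carriers of cGAMP, 8 of 18 genes (44.4%) were higher and 5 (27.8%) lower (median log2 fold change 0.14), against a background of 30.1% and 34.5% at 1 CPM or more. Subunits of the LRRC8 anion channel, through which cGAMP can cross the plasma membrane, moved in both directions. LRRC8E was counted 19, 31 and 20 times in siCTRL and 67, 78 and 77 times in siSFPQ (log2 fold change 1.65, adjusted p = 1.73e-06 from edgeR), and 25.7% of its exon bases were shared with no other gene. LRRC8D fell, with 496, 447 and 533 counts in siCTRL and 227, 256 and 209 in siSFPQ (log2 fold change -1.10, adjusted p = 5.31e-11 from edgeR).

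Of the genes of STING traffic and turnover, 8 of 24 (33.3%) were higher and 9 (37.5%) lower (median log2 fold change -0.05), both near the background of 30.1% and 34.5%. RHBDF2, which encodes iRhom2, an adaptor that stabilises STING and helps it leave the endoplasmic reticulum, rose 2.46-fold, with means of 1220 ± 48.9 and 2999 ± 128 normalized counts (SD, n = 3 each, log2 fold change 1.30, adjusted p = 6.33e-21 from edgeR). STIM1, a calcium sensor that holds STING at the endoplasmic reticulum, fell, with means of 2208 ± 114 and 1534 ± 69.8 normalized counts (SD, n = 3 each, log2 fold change -0.53, adjusted p = 2.43e-10 from edgeR).

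Of the kinases, adaptors and transcription factors below STING, 9 of 16 (56.2%) were higher and 5 (31.2%) lower (median log2 fold change 0.23), against a background of 30.1% and 34.5%. IRF1, an interferon-raised transcription factor, was counted 348, 295 and 334 times in siCTRL and 696, 597 and 653 times in siSFPQ (log2 fold change 0.99, adjusted p = 5.02e-11 from edgeR). AZI2, an adaptor of TBK1, fell most (log2 fold change -0.38, adjusted p = 1.09e-06), with 38.6% of its exon bases unshared.

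The nucleases and other limiters of self nucleic acid numbered 5 higher (29.4%) and 7 lower (41.2%) of 17 tested (median log2 fold change -0.09), where the background was 30.1% and 34.5%. TREX2, a nuclear relative of TREX1, rose from 33, 41 and 53 counts to 77, 84 and 68 (log2 fold change 0.84, adjusted p = 0.00238 from edgeR). Of its exon bases, 45.3% were shared with no other gene. RNASEH1, which degrades the RNA strand of R-loops, fell, with 1256, 1370 and 1372 counts in siCTRL and 908, 931 and 938 in siSFPQ (log2 fold change -0.53, adjusted p = 4.2e-09 from edgeR).

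On the AIM2 and ZBP1 arms, 7 of 11 tested genes (63.6%) were higher and none was lower (median log2 fold change 0.58). The background was 22.4% and 22.1% of all tested genes, and 30.1% and 34.5% at 1 CPM or more. Of 14 listed genes, 11 were tested, since the others had fewer than 10 counts. PYCARD, which encodes ASC, had 0, 1 and 4 counts in siCTRL and 3, 10 and 7 in siSFPQ. It was not called (adjusted p = 0.123 from edgeR), and is named after its values were seen. MLKL, the executor of necroptosis, rose from 139, 151 and 138 counts to 470, 454 and 561 (log2 fold change 1.79, adjusted p = 1.91e-15 from edgeR), and is also in the study's signature. Its activating kinase RIPK3 had 0 counts in siCTRL and 0, 0 and 1 in siSFPQ. IL1B, the cytokine that caspase-1 matures, had 0, 0 and 1 counts in siCTRL and 7, 9 and 8 in siSFPQ, a ratio of summed counts of 23.9 with a 95% counting interval of 3.90 to 984 (adjusted p = 0.004 from edgeR). IL1B entered the test only through its siSFPQ counts, so it could only be called higher. IL18, another caspase-1 substrate, was abundant in both groups, at 10829, 10867 and 11709 counts in siCTRL and 16161, 17124 and 16986 in siSFPQ (log2 fold change 0.58, adjusted p = 4.83e-15 from edgeR), and is named after its values were seen.

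All 9 tested genes of the IRF3 target list were higher in siSFPQ, against 22.4% of all tested genes, with log2 fold changes from 0.96 to 4.14 and a median of 3.23. Past both thresholds were 7 of them, CCL5, CXCL10, IFIT2, IFIT3, RSAD2, OASL and IFI44, all of which the study had picked from these libraries. IFIT1, called higher but not past both, is in the study's signature too, and of the 9 genes only ISG15 is not. The rise of the list above the background is therefore not independent evidence. CXCL10 reached 10 counts in total only through siSFPQ, with 3 counts summed over siCTRL. IFNB1, the interferon gene that defines the output of the axis, had 0 counts in each of the 6 libraries, with none of its exon bases shared, which allows up to 0.069 CPM in the shallowest library. By RT-PCR in U-2 OS cells, the study lists this gene (printed as INFB1) among those whose expression a STING antagonist suppressed. The 0 given here is of polyA RNA counts alone. IFNL1, IFNL2 and IFNL3 had at most 2 counts in a library.

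**Figure D4:**
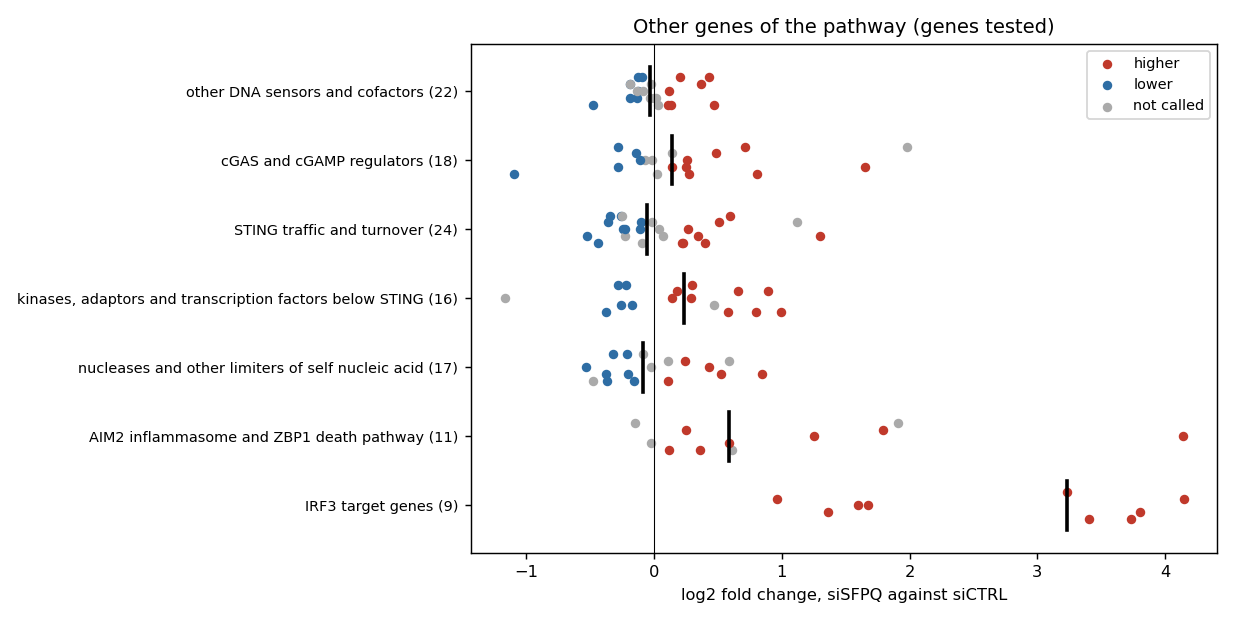
Log2 fold change of siSFPQ against siCTRL (horizontal axis) for each tested gene of 7 pathway lists, 1 point a gene, coloured by call at an adjusted p under 0.05, with the list's median as a black bar and the number tested in brackets. Medians lie between -0.09 and 0.23 in the first 5 lists, at 0.58 on the AIM2 and ZBP1 arms and at 3.23 for IRF3 target genes.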

How the data were processed

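PolyA RNA of U-2 OS cells was sequenced from both ends, and the authors, after quality control in FastQC, used STAR 2.7.9a with the Ensembl GRCh38 genome to make the raw counts per gene that were deposited. The strand setting and the treatment of reads in overlapping exons are not given in the sources used here, and the sources differ on whether the kit kept strand. All 6 columns were mapped to samples by name, and 0 were left unused. The members and lists were chosen with earlier results of these data known.

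Genes with at least 10 counts in total entered the quasi-likelihood test of edgeR 4.0.16 (R 4.3.3) after TMM normalization, without covariates and with Benjamini-Hochberg adjustment over 29022 genes. Thresholds were from the study's methods (adjusted p under 0.05; log2 fold change over 1.5 or under -1.5). Its DESeq2 analysis was replaced by edgeR, with DESeq2 1.42.0 as an alternative. Normalized counts are counts over effective library size, scaled to the libraries' geometric mean. Symbols, spans and exons came from GENCODE release 44 by gene identifier (99.67% matched). Besides the members, each pathway list's genes past both thresholds were named, with its largest rise and fall among called genes with a mean of at least 1 CPM. 1 gene of the marker lists is not reported here. Scripts were tested on simulated counts. Replicates were checked for repeated libraries and differed by more than sampling noise.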

Additional observations from a re-analysis of the deposited data

How the results depend on the processing

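The alternatives were filterByExpr or no count filter, scaling by RLE or by library size alone, DESeq2, the replicate number as a block, a log2 threshold of 1 and each library left out in turn. Members called higher, 6 as reported, numbered 4 to 7, with 4 without siSFPQ replicate 2, while 1 was lower throughout. Members past both thresholds numbered 3, and 2 under filterByExpr, which left ZBP1 untested. Pathway genes ranged from 50 to 59 higher and from 22 to 34 lower, with 59 and 22 under library size alone. The SFPQ log2 fold change ranged from -2.84 to -2.67. IFI16, AIM2, STING1 and ENPP1 kept direction and call in all 12 alternatives run for single genes, and ZBP1 in the 11 that tested it. SAMHD1 was called under filterByExpr (adjusted p = 0.0285), RLE (0.0476), library size alone (0.00297), the replicate block (0.0289) and without siCTRL replicate 2 (0.0229). TBK1 turned to 0.017 with library size alone (adjusted p = 0.806), a scaling that put the median of all genes at 0.0828. Same-numbered libraries deviated together with correlations of -0.00327, 0.0881 and 0.0547, so the numbers were not taken to pair samples. With the replicate block 7 members were higher and 1 lower. Over all genes, filterByExpr left 967 higher and 996 lower past both thresholds, against 1609 and 1384, with fewer genes tested. Depth limits AIM2 and ZBP1, which had at most 26 counts per library.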
